A study of Mus musculus with 2 samples.

Results

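The genes described here encode components and receptors of complement: the C1q chain genes C1qa, C1qb and C1qc, the central component C3, the anaphylatoxin receptor genes C3ar1 and C5ar1, the properdin gene Cfp and the factor B gene Cfb. They were chosen by name. For 7 of the 8 a feature of the array carried that gene symbol alone, out of 22180 genes named in this way; C3 was not analysed here. Each of the 7 had 1 such feature, so every value below is the reading of a single feature.

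RNA came from alveolar macrophages, the macrophages that live in the air spaces of the lung, sorted by flow cytometry from mice aged 8 to 10 weeks. There were 2 Affymetrix arrays, 1 of cells from Lysm-Cre mice, called control here, and 1 of cells from Lysm-CreSsu72fl/fl mice. Both genotypes carry Cre under the lysozyme 2 promoter, which is active in macrophages, monocytes and granulocytes, and in the second genotype Ssu72, the gene of an RNA polymerase II phosphatase, is flanked by recombination sites. How many mice were pooled for each array is unknown here. With 1 array per genotype there is no replicate check, no test between genotypes and no error between animals, and having so few arrays limits how precise any value can be. Ssu72 itself read 4.86 in the control and 4.998 on the array labelled Ssu72fl/fl (0.14 on the log2 scale). Where its probes lie is not known here, so the reading does not check the label, and every direction below rests on the label. "Lower" and "higher" mean lower or higher on the array labelled Ssu72fl/fl, and every difference is that array's log2 value minus the control's.

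Complement is a chain of plasma proteins that marks particles for uptake and can lyse them. In the classical pathway C1q binds antibody or dying cells and activates the proteases C1r and C1s, in the alternative pathway factor B and properdin build and stabilise the enzyme that cleaves C3, and the released fragments C3a and C5a act on cells through C3ar1 and C5ar1. Most complement proteins are made by the liver, but C1q is made largely by macrophages and dendritic cells, and properdin by myeloid cells.

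The C1q genes and Cfp gave the stronger signals, and 6 of the 7 measured genes read lower on the array labelled Ssu72fl/fl. The differences ran from -0.48 for C1qb to 0.0089 for Cfb, whose signal was below the floor on both arrays. The floor, 4.65, is the 50th percentile of the pooled values. Genes that exceeded it on either array were compared, and differences were counted after lower values were set to the floor. All of the 6 genes above it were above it on both arrays. Among all 13015 compared genes 51.9% were lower at all and 48.1% higher, and among the 7129 named genes in the range of mean signal of these 6, 54.0% were lower, with a median of -0.017. The median of the 6 was -0.18. No member was 2-fold lower or higher, calls that 0.0845% and 0.0307% of compared genes reached. No member was 1.5-fold lower or higher either, against 1.37% and 0.315% of compared genes. Only C1qb and Cfp had enough signal on the control array to be counted as 2-fold lower, and only the 3 C1q genes and Cfp as 1.5-fold lower. Of all genes bright enough for those calls, 0.698% were 2-fold lower and 5.44% were 1.5-fold lower.

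**Figure D1:**
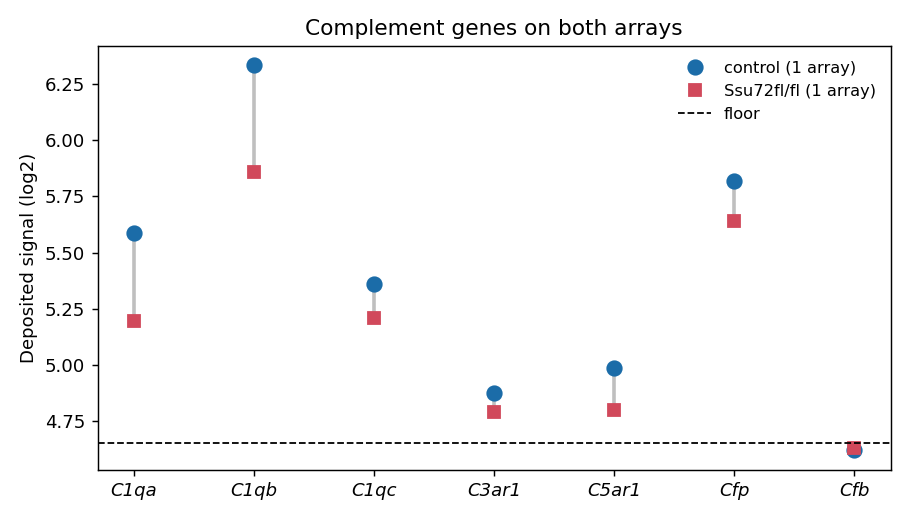
Deposited log2 signal (vertical axis) of the 7 measured complement genes (horizontal axis) on the control array (circles) and the array labelled Ssu72fl/fl (squares), 1 array each, with the floor as a dashed line. C1qb has the highest signal and the widest gap, from 6.33 to 5.86, and both Cfb points lie below the floor.

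The difference between these arrays depends on signal, so each gene was set against the 200 named genes nearest to it in mean signal. Features with a mean signal of 5 to 6, where most of the brighter members lie, had a median difference of -0.037, against -0.28 from 6 to 7. The median of the 200 genes and their robust SD, which is scaled from the median absolute deviation, describe scatter between genes and not between animals. A level-adjusted difference, given beside some values, is what remained after a smooth curve of difference on signal was subtracted. Ranks below order the readings of features, whose probes differ in how strongly they bind, and they do not order the amounts of transcript.

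The C1q genes encode the A, B and C chains that assemble into C1q, the recognition molecule of the classical pathway. C1qb read 6.33 in the control and 5.86 in the array labelled Ssu72fl/fl, which differ by -0.48. On a linear scale that is a ratio of 0.719, or a smaller true ratio if the deposited scale is compressed by an offset. Its rank among named genes was 590 on the control array and 968 on the other. The 200 genes of like signal had a median of -0.16 and a robust SD of 0.30, so C1qb was 0.32 below their median, and 27 of the 200 were lower still.

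C1qa read 5.59 and 5.20, a difference of -0.39. Its rank moved from 1735 to 3400 of 22180, the widest move in rank among the 3 C1q genes. Genes of like signal had a median of -0.033 and a robust SD of 0.20, and 10 of the 200 were lower than C1qa. It therefore lay at the lower edge of genes of its signal, at -1.75 robust SDs from their median, and by that measure farther out than any other member.

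C1qc read 5.36 and 5.21, a difference of -0.15, with ranks of 2594 and 3294. This lay inside the scatter of genes of like signal (median -0.015, robust SD 0.19), of which 55 of 200 were lower. The 3 C1q genes thus pointed the same way by unequal amounts. The gap between the differences of C1qa and C1qb was 0.084, between C1qa and C1qc 0.24 and between C1qb and C1qc 0.33. For comparison, 2 features of 1 gene, both with a mean signal above 5, differed by a median of 0.25 over 113 genes. The level-adjusted differences were -0.34 for C1qa, -0.28 for C1qb and -0.11 for C1qc.

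The C1q genes lie side by side on chromosome 4, in the order C1qb, C1qc, C1qa in the RefSeq table of GRCm38.p6. The protein-coding gene that follows C1qa, the ephrin receptor gene Epha8, read 4.99 and 5.01 (0.024). The stretch before the start of C1qb and of C1qc is shown because these neighbouring genes were both lower. A RefSeq promoter entry was available for 6 of the 8 genes, and not for C1qa or Cfb. The sequences are on the minus strand of GRCm38.p6, written 5′ to 3′, from chr4:136886201-136886450 for C1qb and chr4:136892937-136893164 for C1qc, up to the outermost annotated start of each gene. Capitals mark GAGGAA or its reverse complement TTCCTC, the core bound by the myeloid factor PU.1, and TGCTGA, a half-site for Maf factors.
C1qb: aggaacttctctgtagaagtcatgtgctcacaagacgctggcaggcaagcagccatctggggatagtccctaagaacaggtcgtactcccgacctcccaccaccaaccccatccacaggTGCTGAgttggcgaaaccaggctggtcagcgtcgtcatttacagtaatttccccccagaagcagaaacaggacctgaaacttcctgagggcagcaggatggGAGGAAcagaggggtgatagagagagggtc
C1qc: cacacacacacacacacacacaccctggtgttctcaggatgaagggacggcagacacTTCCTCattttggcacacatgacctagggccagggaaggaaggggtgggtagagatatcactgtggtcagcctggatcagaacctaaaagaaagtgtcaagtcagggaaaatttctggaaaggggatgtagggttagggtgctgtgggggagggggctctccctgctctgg
GAGGAA was found on either strand in 23.3% of 32851 RefSeq windows of 250 bases before a start, and TGCTGA in 16.1%. Counted back from the end of the printed stretch, GAGGAA begins 30 bases and TGCTGA 131 bases before it in C1qb. In C1qc TTCCTC begins 171 bases before it, and TGCTGA was not among these letters. The start that the promoter table uses for C1qc lies 22 bases past the outermost start at which the printed stretch ends. The AP-1 motif TGANTCA, present in 6.75% of windows, was not among these letters in either gene, and the motifs shown do not overlap one another. In the windows of C3, C3ar1, C5ar1 and Cfp, the other members with an entry, GAGGAA was not found on either strand. TGCTGA or its reverse complement was found in C3, C3ar1 and C5ar1, and TGANTCA in C3ar1. A match describes letters and is not evidence of binding.

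**Figure D2:**
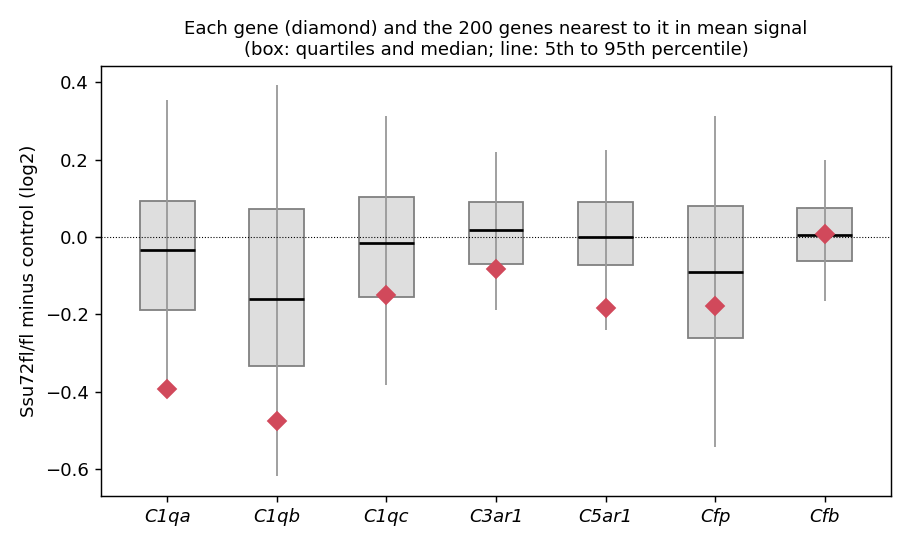
Difference between arrays in log2 units (vertical axis) for each measured complement gene (diamond), over the quartiles and median (box) and the 5th to 95th percentiles (line) of the 200 named genes nearest to it in mean signal. C1qa lies at the lower end of its line, C1qb, C5ar1 and C3ar1 below their boxes, and C1qc and Cfp inside theirs.

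Cfp encodes properdin, which stabilises the C3-cleaving enzyme of the alternative pathway. It read 5.82 and 5.64, a difference of -0.18, with ranks of 1227 and 1428. Genes of like signal had a median of -0.092 and a robust SD of 0.25, and 73 of 200 were lower, so Cfp was near the middle of its neighbours. Its level-adjusted difference was -0.065. Of the genes next to it on chromosome X, the transcription factor gene Elk1 was at 5.13 and 5.25 (0.12), and the protease inhibitor gene Timp1 was below the floor on both arrays.

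Cfb encodes factor B, the protease component of the alternative pathway. It read 4.62 and 4.63, a difference of 0.0089, with ranks of 12726 and 12787. Both values were below the floor, so neither a level nor a change can be read from them. Quantile normalization gave -0.0020 for Cfb and median centring -0.0030.

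The receptor genes gave weak signals. C5ar1 encodes the receptor through which C5a recruits and activates myeloid cells. It read 4.987 and 4.802, which is 0.33 and 0.15 above the floor, and the difference was -0.18. Its 200 neighbours had a median of -0.00072 and a robust SD of 0.12, and 18 of them were lower. C5ar1 was thus at -1.51 robust SDs from their median, second to C1qa among the members. C5ar2, which encodes the second C5a receptor and lies next to C5ar1 on chromosome 7, pointed the other way, at 4.95 and 5.04 (0.093), with 152 of its 200 neighbours lower. Ccdc9, on the other side of C5ar1, was lower, at 4.91 and 4.82 (-0.092).

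C3ar1 encodes the receptor for C3a. It read 4.87 and 4.79, a difference of -0.083, at 0.22 and 0.14 above the floor. Its neighbours had a median of 0.018 and a robust SD of 0.12, and 39 of 200 were lower. Its rank was 7106 on the control array and 8713 on the other, and its difference was smaller than the scatter of its neighbours. The genes beside it on chromosome 6, Foxj2 (-0.048) and Necap1 (-0.066), differed by similar amounts.

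**Figure D3:**
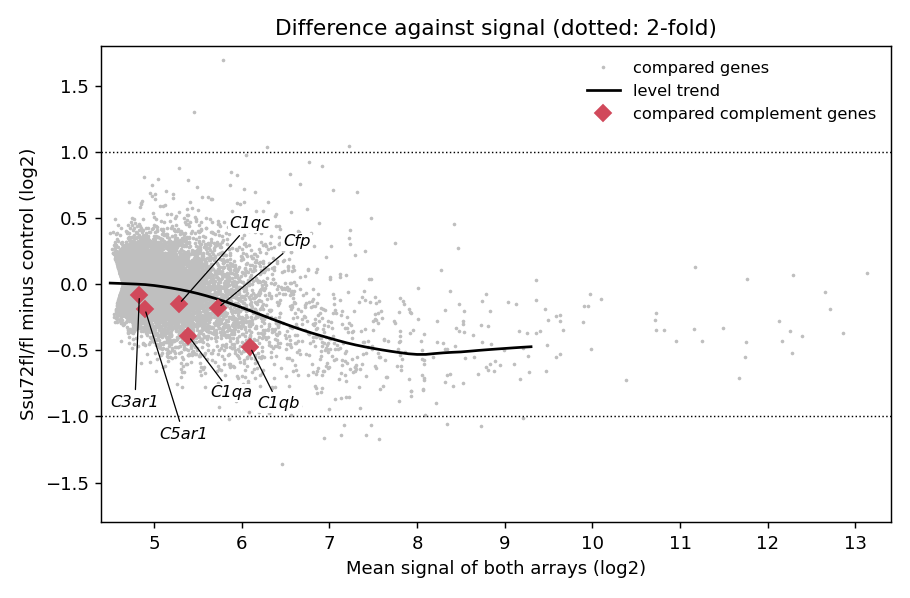
Difference between arrays (vertical axis, log2) against mean signal of both arrays (horizontal axis, log2) for all compared genes (grey), with the smooth level trend up to a mean of about 9 (line), 2-fold limits (dotted) and the 6 compared complement genes (diamonds). All 6 lie below the trend line and far inside the 2-fold limits, with C1qa (-0.39) and C1qb (-0.48) lowest.

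One member had a mean signal above 6, the level from which like genes were sought. The genes whose pair of readings was nearest to that of C1qb were Morf4l2, at 6.33 and 5.89 and a distance of 0.033, and Rsu1, at 6.36 and 5.82 and a distance of 0.044. The distance is Euclidean over the 2 arrays, and with only 2 points it says little beyond a shared signal and difference.

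The wider system was followed in 53 complement genes in 6 lists by role, the members included. Of these, 49 were measured and 25 compared, 18 of them lower and 7 higher. Their median was -0.12, and that of all compared genes -0.0068. None was past 1.5-fold. When the members were left out, 12 of 19 were lower, with a median of -0.058, and when level-adjusted 11 of 19 were lower, with a median of -0.067. Among all 13015 compared genes 51.9% were lower, and 6035 were lower after level adjustment. Counts of complement genes are a description, since a gene above the floor on only 1 array had to differ. This held for Cr2 and Serping1.

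In the classical pathway 5 of 6 compared genes were lower (median -0.25), against 51.9% of all compared genes. The 5 were the 3 C1q genes, C1ra and C4b. C1ra, one of the mouse copies of the gene for the protease C1r, read 5.10 and 4.89 (-0.21). C1rb, the other copy, went the opposite way, at 5.07 and 5.41 (0.33), with 192 of its 200 neighbours lower. C1ra and C1rb are closely related in sequence, so their signals may not be fully separate. C4b, which encodes complement component C4, read 5.07 and 4.79 (-0.28), with 8 of 200 neighbours lower. Its close relative C4a was below the floor on both arrays, as were C2, C1s1 and C1s2, the genes of further classical pathway proteases. The signals of C4a and C4b may share probes in the same way.

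Of the lectin pathway, which starts from sugar-binding proteins, only the ficolin gene Fcna was compared, at 4.77 and 4.89 (0.12), and the other 6 measured genes were below the floor on both arrays. Among the terminal genes, whose products form the lytic pore, 2 of 3 compared genes were lower, against 51.9% of all compared genes. Hc, the gene of component C5, read 4.97 and 4.71 (-0.26), with 5 of 200 neighbours lower. C8b was the highest of the 3, at 4.91 and 4.97 (0.058). Of the list of C3 and the alternative pathway, Cfp alone was compared.

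Complement receptor genes were lower in 8 of 9 cases (median -0.14), and in 7 of 9 after level adjustment. Of all compared genes 51.9% were lower, and 6035 of 13015 after level adjustment. Itgax and Itgb2 encode the chains of complement receptor 4, an integrin that binds a cleaved form of C3, and gave the brightest signals of the list. Itgax read 7.31 and 6.82 (-0.49), and Itgb2 8.27 and 7.90 (-0.38). At those levels most genes were lower, and the level-adjusted differences were -0.067 for Itgax and 0.16 for Itgb2, so the direction of Itgb2 turned with the adjustment. Cd93, a surface glycoprotein of myeloid and endothelial cells once described as a C1q receptor, read 5.36 and 4.96 (-0.40), and 9 of 200 neighbours were lower. Cr1l, which encodes a membrane regulator related to complement receptor 1, was at 5.04 and 4.98 (-0.058). Itgam, whose product pairs with that of Itgb2 in complement receptor 3, was at 4.87 and 4.73 (-0.14), and Vsig4, a receptor of some tissue macrophages, was below the floor on both arrays.

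Of 5 compared regulator genes 2 were lower and 3 higher (median 0.018, with values below the floor set to it). Of all compared genes 51.9% were lower and 48.1% higher. Serping1, the gene of the C1 inhibitor, had the lowest difference as deposited, at 4.654 and 4.511 (-0.14), with 7 of 200 neighbours lower, but its control signal was barely above the floor and its other value below it. Among regulators above the floor on both arrays the clusterin gene Clu was lowest at 4.98 and 4.86 (-0.12), with 41 of 200 neighbours lower, and C1qbp, a mostly mitochondrial protein first found as a C1q-binding protein, highest at 4.73 and 4.804 (0.073). The other 8 measured regulator genes, among them Cd55 and Cd46, were below the floor on both arrays.

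**Figure D4:**
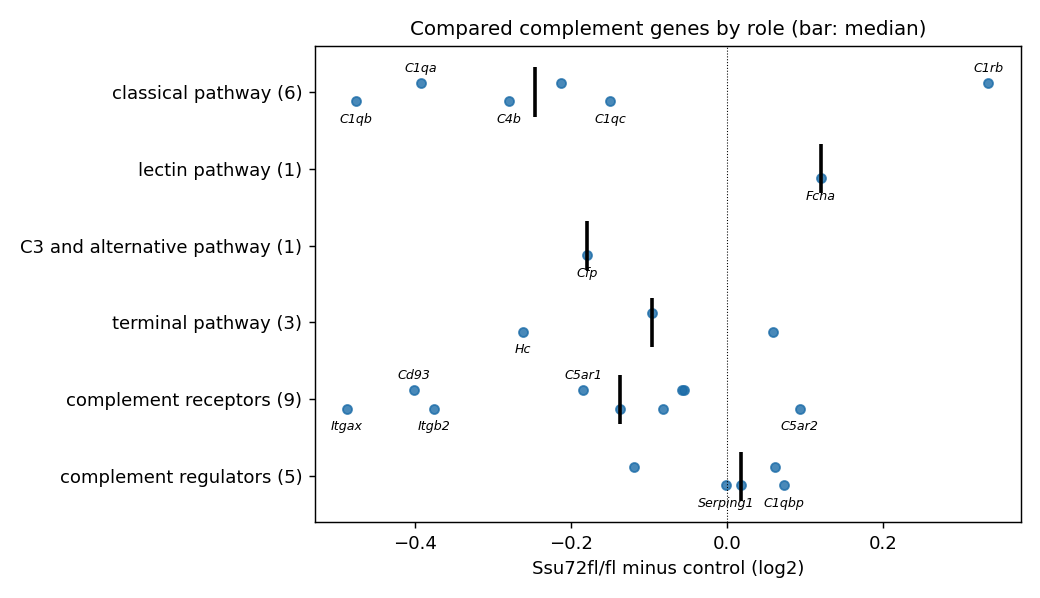
Difference between arrays (horizontal axis, log2, values below the floor set to the floor) of each compared complement gene, by role (rows, with the number of compared genes), with the median of each row as a bar. The classical pathway row runs from C1qb (-0.48) to C1rb (0.33), and the regulator row stays near 0.

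Since C1q and the receptors are shared by several kinds of myeloid cell, marker lists of the labelled cells and of others in the lung were read on the same arrays. In sorted cells measured in bulk, fewer cells of a type and less RNA per cell cannot be told apart. As a background to the counts, 51.9% of all compared genes were lower, and 6035 of 13015 after level adjustment. Bright features were lower more often, 74.7% of those with a mean signal of 6 to 7 and 87.9% from 7 to 10. All 12 measured alveolar macrophage markers were above the floor, led by Chil3 (9.42 and 9.30) and Plet1 (8.68 and 8.38). Their mean signal was 6.98 on the control array and 6.70 on the other, 11 of 12 were lower (median -0.29), and after level adjustment 6 of 12 were lower (median 0.061). Interstitial macrophages, which lie in the lung tissue and are known for high C1q, had 13 markers measured, all above the floor. Their mean signal was 6.20 and 5.85, 11 of 13 were lower (median -0.36, level-adjusted -0.12), and single genes ran from H2-Ab1 (-1.07) to Maf (0.24). H2-Ab1 (9.26 and 8.19) and H2-Eb1 (8.93 and 8.38) were brightest. Both encode MHC class II chains, and whether the signal of this list came from interstitial macrophages alone was not tested. Monocyte markers had a mean signal of 5.49 and 5.26, and 9 of 10 were lower (median -0.26, level-adjusted -0.21), with Nr4a1 (7.20 and 6.72) and Cd14 (6.60 and 6.55) brightest. Of the 9, Ly6c2 was above the floor on the control array only and so had to be lower. Most markers of these other 2 cell types thus read lower, as C1qa and C1qb did, and so did most alveolar macrophage markers. After level adjustment 10 of 13 interstitial macrophage markers were lower and 3 higher, and 8 of 10 monocyte markers lower and 2 higher. With it Mrc1 turned from -0.31 to 0.14 and Cd14 from -0.053 to 0.27. The part of interstitial macrophages and monocytes in the C1q values was not tested.

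Neutrophils, which carry C5ar1 and store properdin, had a mean signal of 4.73 on both arrays over 10 measured markers. Of the 7 compared markers 4 were lower (median -0.032, level-adjusted -0.024), and Cxcr2, Ly6g and Camp were below the floor on both arrays. Elane was above the floor only on the array labelled Ssu72fl/fl and so had to be higher. Csf3r (5.18 and 5.04) and Mmp9 (4.92 and 5.04) were brightest. Alveolar type 2 cells, which can make C3 and factor B, had all 12 markers above the floor, led by Sftpc (8.71 and 8.35) and Sftpb (6.25 and 5.93), with a mean of 5.66 and 5.49 and 9 of 12 lower (median -0.17), while Cfb stayed below the floor. After level adjustment 8 of 12 were lower (median -0.072), and Sftpc turned from -0.36 to 0.15. The 10 measured fibroblast and mesothelial markers had a mean of 5.07 and 5.02. The 8 compared were divided, 4 lower and 4 higher (median -0.026, level-adjusted -0.015). Fn1 (6.14 and 5.87) and Col1a1 (5.77 and 5.42) were brightest, and Pdgfra and Lum were below the floor on both arrays. The 9 measured dendritic cell markers had a mean signal of 5.35 and 5.21. All 6 that were compared were lower (median -0.069), against 51.9% of all compared genes at any signal. One of the 6, Batf3, was above the floor on the control array only and so had to be lower. After level adjustment 5 were lower and 1 higher (median -0.034), and Cd209a turned from -0.31 to 0.18. Cd209a (8.97 and 8.65) and Ccr7 (5.53 and 5.43) were brightest, and Zbtb46, Xcr1 and Itgae were below the floor on both arrays. The part of these cells in the values of Cfp, C5ar1 and C1q was not tested.

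**Figure D5:**
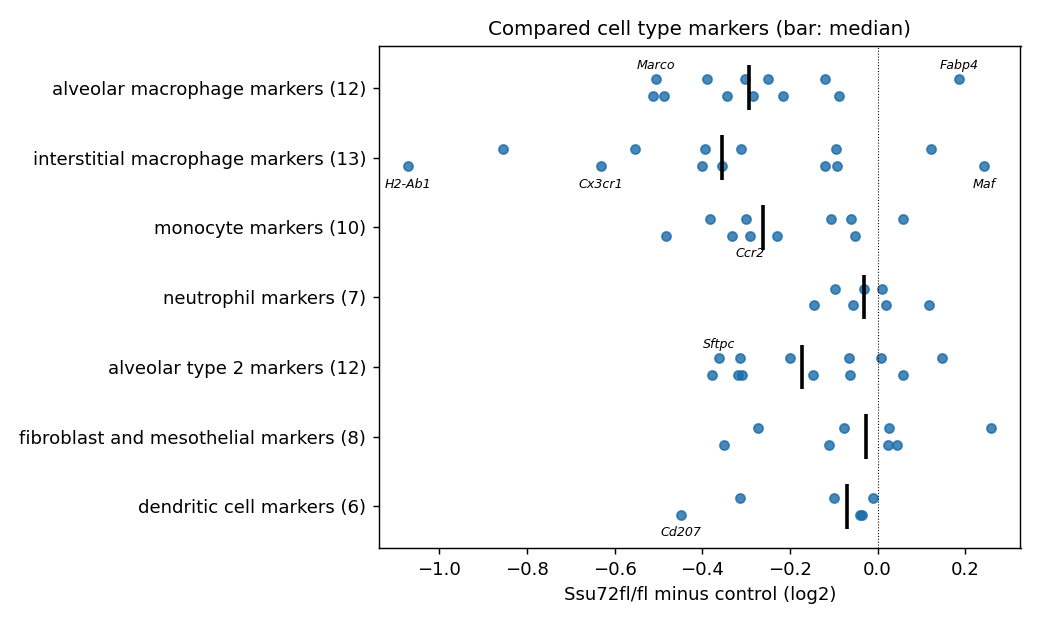
Difference between arrays (horizontal axis, log2, values below the floor set to the floor) of compared marker genes of 7 cell types (rows, with the number compared), with the median of each row as a bar. Interstitial macrophage and monocyte markers lie mostly below 0 (medians -0.36 and -0.26), as alveolar macrophage markers do (-0.29), and neutrophil markers lie around 0.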

How the data were processed

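The deposited values are 1 log2 value per array feature, made by the authors. The log2 scale was inferred from the range of 4.23 to 13.5 and column medians of 4.65 and 4.66. MAS5 appears in the submitters' processing notes, with no step assigned to it. No source used here gives the background correction, normalization, offset or genome build. The labels' protocols give biotinylated cRNA from 6 ug of total RNA. An offset would make differences smaller than true, above all at low signal.

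Of 33793 features, 23521 had 1 gene symbol, 1814 several and 8458 none. Symbols of 23328 were updated by Entrez identifier from RefSeq (GRCm38.p6). Each gene took the feature with the highest mean of both arrays. The trend was a lowess curve (span 0.3) through median differences in bins 0.1 wide with at least 10 features. Genes were named by a fixed rule: all members; in each role list those with a mean above the 75th percentile of all values (4.97), otherwise the lowest and highest difference; in each marker list the 2 brightest and those below the floor. C4b, Itgam, Cr2, Clu, Maf, Mrc1, Ly6c2, Elane and Batf3 fall outside it. So do genes adjacent to members and role-list genes below the floor. All of these were named after their values were seen. Members, lists and motifs were chosen with earlier results of these data known. Calls past 2-fold and level-adjusted differences were tried on simulated arrays, with shifts larger than those of the members and in brighter genes. That trial does not cover differences as small as the members' or counts of genes lower at all. Alternatives were median centring, quantile normalization, trend removal, the mean of a gene's features, floors at the 25th and 75th percentiles, and thresholds of 1.5-fold and 3-fold. Python 3.11.15, numpy 2.4.6, pandas 2.3.3 and statsmodels 0.14.6 were used.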

Additional observations from a re-analysis of the deposited data

How the results depend on the processing

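All 6 compared members stayed lower as deposited and under median centring, quantile normalization, trend removal and the mean of a gene's features. C1qa lay between -0.40 and -0.34, C1qb between -0.49 and -0.28, C1qc between -0.16 and -0.11, C5ar1 between -0.20 and -0.18, C3ar1 between -0.094 and -0.082 and Cfp between -0.19 and -0.065. No move exceeded the robust SD of genes of like signal. With the floor at the 75th percentile 5 members were compared, without C3ar1. The floor set how many complement genes were compared: 43 (16 higher) with it at the 25th percentile and 14 (2 higher) at the 75th, instead of 25 (7 higher). Over all genes, 2-fold calls went from 11 lower and 4 higher to 1 lower and 13 higher after quantile normalization and to 1 lower and 11 higher after trend removal. At 1.5-fold 178 were lower and 41 higher, and at 3-fold 0 and 1. No paired analysis was possible because each genotype had 1 array. Signals near the floor limit C3ar1, C5ar1 and Cfb.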
